A study of Mus musculus with 11 samples.

Results

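Guanylate-binding proteins (GBPs) are large GTPases that cells make in response to interferon. They coat bacteria and the vacuoles that hold parasites, and they help inflammasomes to form. Interferon gamma acts through its receptor and the kinases JAK1 and JAK2 and induces the factor IRF1. Genes that respond to interferons often carry the gamma-activated sequence (GAS) or the interferon-stimulated response element (ISRE), and IRF factors bind the latter. In the mouse, the Gbp genes lie in a cluster on chromosome 3, next to Pkn2, and another on chromosome 5.

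The 9 genes described were chosen by name among 54232 in the count table, with earlier results of these data known. They were Gbp2, Gbp3, Gbp5 and Gbp7 on chromosome 3, and Gbp4, Gbp6, Gbp8, Gbp9 and Gbp10 on chromosome 5. All 9 passed the filter on low counts and were among the 16536 genes tested. They were measured by bulk RNA sequencing in 11 pancreatic tumours, grown from 1000 TB32048 cells injected into the pancreas. TB32048 is a mouse pancreatic ductal adenocarcinoma line from a female mouse. The 6 KO tumours (replicates A to F) grew in Pkn2 fl/fl hosts and the 5 WT tumours (A to E) in Pkn2 +/+ hosts. Every host was a female, age-matched adult on a C57BL/6 background, carried a heterozygous RosaCreERT2 allele, which drives a tamoxifen-inducible Cre in most cell types, and received the same tamoxifen. The deletion was therefore not restricted to fibroblasts, and the injected cancer cells keep their own Pkn2, so that a bulk tumour holds RNA from both deleted and intact cells.

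The chromosome 3 genes lie on the plus strand of GRCm38, downstream of the end of Pkn2, which is transcribed towards them. Gbp5 spans positions 142493978 to 142522344, Gbp7 spans 142530342 to 142550149, Gbp3 spans 142560026 to 142573209, and Gbp2 spans 142620602 to 142638008. Their distance from Pkn2 ran from 152894 bases for Gbp2 to 268558 bases for Gbp5, and Gbp2b, a further family member, lies between Gbp3 and Gbp2. On chromosome 5 the members lie on the minus strand in the order Gbp8 (105014150 to 105139540), Gbp9 (105077630 to 105139539), Gbp4 (105115767 to 105139586), Gbp10 (105215699 to 105239533) and Gbp6 (105270702 to 105293698). Gbp4, Gbp8 and Gbp9 overlap at one end, but at least 98.2% of the exonic bases of each belong to no other gene. This is not so for Gbp6 and Gbp10, which share exons with the annotated gene Gm43302 and keep 71.0% and 53.7% of their exonic bases for themselves. Of all windows of their transcripts as long as a sequencing read, 59.0% for Gbp6 and 66.5% for Gbp10 also occur in another gene's transcripts, so their counts are uncertain. For Gbp7 that share was 8.76%, and for the other 6 members it was at most 0.0127%.

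The promoters of the chromosome 3 genes are shown because cells make these proteins in response to interferon. RefSeq promoters (GRCm38.p6, 250 bases before to 50 after the start) were matched for 4 of the 9 members and for Gbp2b. They were searched on both strands for the ISRE core TTTCNNTTTC (GAAANNGAAA on the other strand) and for the GAS motif TTCNNNGAA, which is its own reverse complement. Each line gives 30 bases of the plus strand, 5′ to 3′, with the match in capitals.
Gbp5, ISRE, chr3:142496759-142496788: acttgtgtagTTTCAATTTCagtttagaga
Gbp7, ISRE, chr3:142530273-142530302: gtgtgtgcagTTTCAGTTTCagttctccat
Gbp3, ISRE, chr3:142559989-142560018: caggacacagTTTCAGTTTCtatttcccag
Gbp2b, ISRE, chr3:142594700-142594729: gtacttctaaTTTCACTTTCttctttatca
Gbp2, ISRE, chr3:142620594-142620623: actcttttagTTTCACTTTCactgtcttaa
Gbp5, GAS, chr3:142496872-142496901: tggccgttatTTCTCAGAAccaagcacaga
Gbp7, GAS, chr3:142530220-142530249: tccgttttctTTCCAGGAAaagcagaagct

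Each of the 5 genes held an ISRE core upstream of a RefSeq start, against 3.44% of all 32851 promoters of that length. The match began 165 bases before the start in Gbp5, 53 in Gbp7, 45 in Gbp3, 137 in Gbp2b and 59 in Gbp2. Gbp3 held a further match that overlaps the one shown, and its other RefSeq promoter held none. GAS matches were found in Gbp5 and Gbp7, with 2 in each, and not in the windows of Gbp3, Gbp2b and Gbp2, against 8.30% of all promoters. A match describes letters in a window and says nothing of a factor's binding.

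Depth and RNA composition differed between tumours. Between 16294128 (WT replicate B) and 31121422 counts (WT replicate E) were obtained per tumour, and 3 counts, taken as the floor, correspond to at most 0.25 CPM, the count relative to a library size scaled by the TMM method. Ribosomal RNA took 6.39% of counts in WT replicate B and between 0.241% and 1.40% in the other 10 tumours. All marker lists of macrophages, T cells, natural killer (NK) cells, fibroblasts and epithelium were detected in every tumour, whereas the acinar markers Cpa1, Cpb1 and Pnlip were at 0 in at least 1 tumour.

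The Gbp genes were abundant and very unequal. To compare genes, CPM was divided by the length of the gene's exons in kilobases. On this scale Gbp2, which is recruited to parasite vacuoles, had the highest mean over the 11 tumours at 718 CPM per kilobase, with 996 ± 708 (SD) in the 6 KO and 385 ± 243 (SD) in the 5 WT tumours. Gbp3 followed at 115 and Gbp4, the leading chromosome 5 member, at 36.9 CPM per kilobase. Below them came Gbp5 at 26.7, Gbp7 at 22.7, Gbp9 at 16.7, Gbp8 at 14.1, Gbp6 at 10.1 and Gbp10 at 5.61 CPM per kilobase. Within single tumours, Gbp2 exceeded Gbp3 and Gbp3 exceeded Gbp4 in 11 of 11. Gbp6 exceeded Gbp10 in 11 of 11 on the full exon length. That length includes the exons shared with Gm43302, and only 71.0% of it for Gbp6 and 53.7% for Gbp10 belong to no other gene. The places of Gbp6 and Gbp10 in the order are therefore uncertain. Neighbours in the middle of the order were not separated: Gbp5 exceeded Gbp7 in 4 of 11 tumours (log2 ratio -0.27 ± 0.90, SD), or in 8 of 11 (mean log2 ratio 0.55) when the longest transcript was taken as the length, and Gbp9 exceeded Gbp8 in 7 of 11 (0.16 ± 0.72). With the longest transcript, Gbp4 stood at 60.9 and Gbp5 at 47.1 CPM per kilobase. Together the 9 genes took between 0.104% and 0.891% of all counts in KO tumours and between 0.0393% and 0.293% in WT tumours.

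Gbp2 was measured at 582 CPM in the lowest KO tumour (replicate D), at a median of 2107 and at 5160 in the highest (replicate F). In WT tumours it was 1802, 319, 1180, 1135 and 413 CPM in replicates A to E. The groups overlapped: 4 of 6 KO tumours lay above the highest WT tumour, while KO replicates C and D lay within the WT range. Group means were 2505 ± 1782 CPM (SD, n = 6) for KO and 970 ± 612 CPM (SD, n = 5) for WT. The log2 fold change (KO minus WT) was 1.37 with a standard error (SE) of 0.58, or 2.58-fold, which did not pass the test across all genes (edgeR quasi-likelihood test, Benjamini-Hochberg adjusted p = 0.178). In bulk tumours, more cells of a type and more RNA per cell cannot be told apart.

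Gbp5, which promotes assembly of the NLRP3 inflammasome, had the largest difference among the chromosome 3 members. Its lowest, median and highest KO values were 43.5, 200 and 649 CPM, against 116, 16.5, 65.6, 112 and 46.3 CPM in WT replicates A to E. Again 4 of 6 KO tumours lay above all WT tumours, and KO replicate D lay below 4 of the 5. The log2 fold change was 1.89 (SE 0.64), or 3.71-fold, and its adjusted p was 0.119 with edgeR. DESeq2, on the same genes, gave 1.90 (SE 0.58) with an adjusted p of 0.0223, so that the call for Gbp5 depended on the tool.

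Gbp3 ran from 121 through a median of 421 to 1096 CPM in KO tumours, and was 461, 65.1, 222, 247 and 96.4 CPM in WT replicates A to E. Only KO replicates B and F exceeded WT replicate A, and the log2 fold change was 1.21 (SE 0.57, edgeR adjusted p = 0.213). Gbp7, which acts in the defence of phagocytes against intracellular microbes, ran from 64.8 through 137 to 303 CPM in KO tumours. In WT replicates A to E it was 89.3, 42, 153, 133 and 70 CPM. At 0.65 (SE 0.39, edgeR adjusted p = 0.322), its log2 fold change was the smallest of the family.

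**Figure D1:**
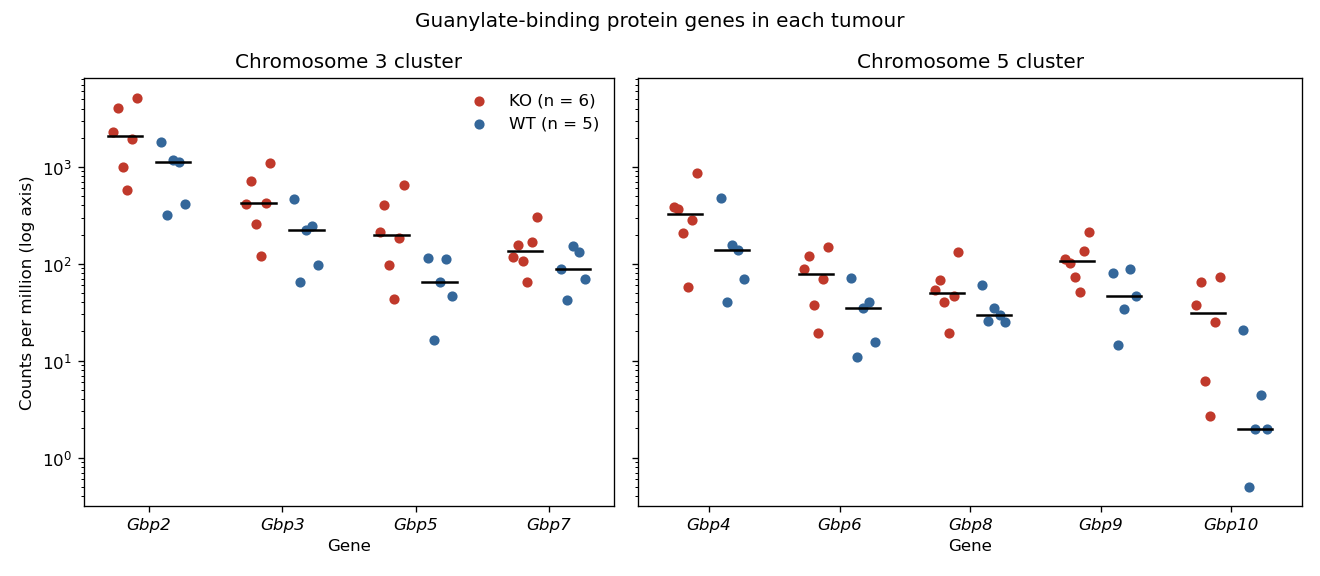
CPM (log axis) of each Gbp gene, with 1 point per tumour (KO in red, n = 6; WT in blue, n = 5) and a black line at each group's median. The KO median lies above the WT median for each of the 9 genes, from 2107 against 1135 CPM for Gbp2 to 31.3 against 1.98 CPM for Gbp10, and the groups overlap in every gene.

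On chromosome 5, Gbp4 ran from 58 through a median of 326 to 857 CPM in KO tumours. Its WT values were 476, 40.7, 156, 139 and 69.3 CPM in replicates A to E, so that WT replicate A exceeded all KO tumours but replicate F. The log2 fold change was 1.03 (SE 0.66, edgeR adjusted p = 0.349), and 1.83 without WT replicate A or 0.56 without KO replicate F. Gbp9 ran from 51.3 through 106 to 214 CPM in KO tumours, and was 80.7, 14.4, 34.1, 88.8 and 47 CPM in WT replicates A to E. All 6 KO tumours lay above the WT median for this gene, and the log2 fold change was 1.10 (SE 0.44, edgeR adjusted p = 0.16).

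Gbp8 ran from 19.5 through 49.9 to 133 CPM in KO tumours, against 60.1, 25.7, 35, 29.6 and 24.8 CPM in WT replicates A to E (log2 fold change 0.77, SE 0.41, edgeR adjusted p = 0.26). KO replicate D had the lowest Gbp8 value of all 11 tumours. Gbp6 and Gbp10 are given with the reservation on their shared exons. Gbp6 ran from 19.4 through 79 to 150 CPM in KO tumours, against 72.1, 11, 34.7, 40.6 and 15.6 in WT replicates A to E (1.21, SE 0.54, edgeR adjusted p = 0.197). Gbp10 was the most variable member, from 2.68 through 31.3 to 73 CPM in KO tumours and 20.9, 0.501, 1.97, 4.46 and 1.98 CPM in WT replicates A to E. Its lowest value rested on 6 counts, its highest was 146 times higher, and its log2 fold change was 2.53 (edgeR, SE 0.95, adjusted p = 0.141), or 3.93 without WT replicate A.

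Counted over the family, all 9 log2 fold changes were positive, against 48.0% of all tested genes, with a median of 1.29 over the 4 chromosome 3 members, 1.10 over the 5 chromosome 5 members and -0.03 over all genes tested. The members move together across tumours, so these are not 9 independent observations. At an adjusted p under 0.05, edgeR called 0 of 4 members on chromosome 3 and 0 of 5 on chromosome 5, where 0.0181% of all tested genes were called higher. At an unadjusted p under 0.05, edgeR counted Gbp2 and Gbp5 on chromosome 3 (2 of 4) and Gbp6, Gbp9 and Gbp10 on chromosome 5 (3 of 5), against 8.57% of all genes. DESeq2 called 1 of the 9, Gbp5, against 3.42% of all genes called higher. With limma-voom 0 of the 9 were called, but also 0 of all 16536 genes tested. No member was without overlap between groups, against 1.59% of all genes with every KO value above every WT value.

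The family's 2 remaining tested genes gave like values. Gbp2b ran from 4.15 through 33.3 to 159 CPM in KO tumours and from 2.48 through 8.77 to 23.2 CPM in WT tumours (log2 fold change 2.21, SE 0.89, edgeR adjusted p = 0.159). Gbp11, annotated as a polymorphic pseudogene, gave 1.22 on the log2 scale (SE 0.60, edgeR adjusted p = 0.232).

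These differences changed with a term for the ribosomal RNA share and with single tumours. When the edgeR fit included that share, the log2 fold changes were 0.66 for Gbp2 (SE 0.88), 0.80 for Gbp5 (SE 0.88), 0.14 for Gbp7 (SE 0.50), 0.37 for Gbp4 (SE 1.08) and 1.29 for Gbp10 (SE 1.67). Without that term the SE were 0.58, 0.64, 0.39, 0.66 and 0.95, in the same order. The share was higher in WT replicates A to D (from 0.765% to 6.39%) than in any KO tumour (at most 0.739%), and lowest in WT replicate E (0.241%). Share and genotype can thus not be fully told apart. With the term, none of the 9 had an unadjusted p under 0.05. The same fit lowered the number of all genes at that threshold, in either direction, from 3972 to 1470. Without KO replicate F, the tumour with the highest value of all 9 genes, the log2 fold changes were 1.02 for Gbp2, 1.40 for Gbp5, 0.33 for Gbp7 and 2.18 for Gbp10. The unadjusted counts became 1 of 4 and 1 of 5. Without KO replicate D, the lowest KO tumour for all 9, the count on chromosome 3 became 4 of 4, and without WT replicate A that on chromosome 5 became 5 of 5. Without KO replicate B or WT replicate B the chromosome 3 count became 1, and without WT replicate C or E both counts became 1. The number of all genes at that threshold also moved. It was 3218 without KO replicate F, 3288 without KO replicate D and 3232 without KO replicate B. Without WT replicate A, B, C or E it was 3357, 2732, 3989 or 5367, respectively.

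The neighbourhood of Pkn2 was examined next, since the chromosome 3 members are linked to the floxed gene. Pkn2 itself had a mean of 96.6 ± 9.34 CPM (SD, n = 6) for KO and 96.7 ± 34.6 CPM (SD, n = 5) for WT, a fold of 0.998 (edgeR adjusted p = 0.996), so that total Pkn2 RNA did not separate the genotypes in these tumours. Within 1 Mb of Pkn2, 34 further annotated genes outside the Gbp family were listed, and 6 of them were tested. Their log2 fold changes ran from -0.17 to 0.49 with a median of 0.13, and 0 of the 6 had an unadjusted p under 0.05 with edgeR (lowest adjusted p = 0.499, over all genes). They were the transcription initiation factor gene Gtf2b (-0.17, SE 0.15), the scaffold gene Pdlim5 (0.23, SE 0.31), the kynurenine aminotransferase gene Kyat3 (0.08, SE 0.47), the BMP receptor gene Bmpr1b (0.17, SE 0.55), the netrin receptor gene Unc5c (0.49, SE 0.46) and 9530052C20Rik (-0.02, SE 0.67). Several of these neighbours were low. Mean levels in KO and WT tumours were 0.471 and 0.483 CPM for 9530052C20Rik and 1.31 and 1.18 CPM for Bmpr1b. They were 4.53 and 3.22 CPM for Unc5c and 7.12 and 6.71 CPM for Kyat3, so these log2 fold changes are imprecise. The genes beside Pkn2 are inherited with the floxed allele, so the deletion and any sequence linked to it cannot be told apart for the chromosome 3 members alone, whereas the chromosome 5 members are not linked to it.

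**Figure D2:**
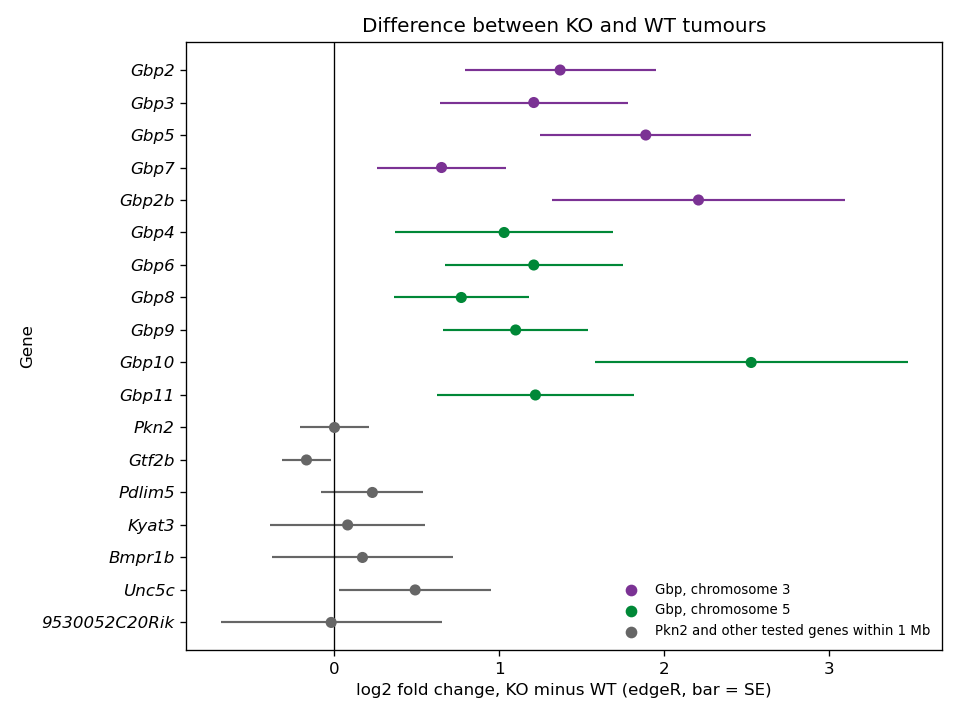
Log2 fold change (KO minus WT, edgeR; bars are SE) of the Gbp genes on chromosome 3 (purple) and chromosome 5 (green) and of Pkn2 and the other tested genes within 1 Mb of it (grey). All Gbp genes lie above 0, from 0.65 to 2.53, and the 6 grey neighbours lie between -0.17 and 0.49.

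The clusters kept their proportions. The chromosome 3 members took 83.4 ± 2.71% (SD, n = 6) of the family's counts when the host was KO and 82.1 ± 3.39% (SD, n = 5) when it was WT, which differ by less than either spread. Gbp2 alone took 60.5 ± 4.05% in KO and 58.1 ± 3.75% in WT tumours. In contrast, the summed level of the 9 genes ran from 961 to 8635 CPM in KO tumours and from 535 to 3178 CPM in WT tumours. Group means of that sum were 4076 ± 2841 CPM (SD, n = 6) for KO and 1662 ± 1056 CPM (SD, n = 5) for WT.

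The order of the tumours was shared as well. KO replicate F ranked first of 11 for all 9 genes, KO replicate B ranked in the top 2 for 6 of 9, and WT replicate B was lowest for 8 of 9. KO replicate D ranked between 8th and 11th for every gene. WT replicates A and C were less uniform, ranking from 2nd to 8th and from 4th to 10th. As a description, Pearson's r of log2(CPM + 1) between pairs of members over the 11 tumours ran from 0.87 to 0.99 within chromosome 3 (6 pairs), from 0.74 to 0.97 within chromosome 5 (10 pairs) and from 0.73 to 0.99 between the chromosomes (20 pairs). The pairs share their libraries and thus their depth and composition.

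**Figure D3:**
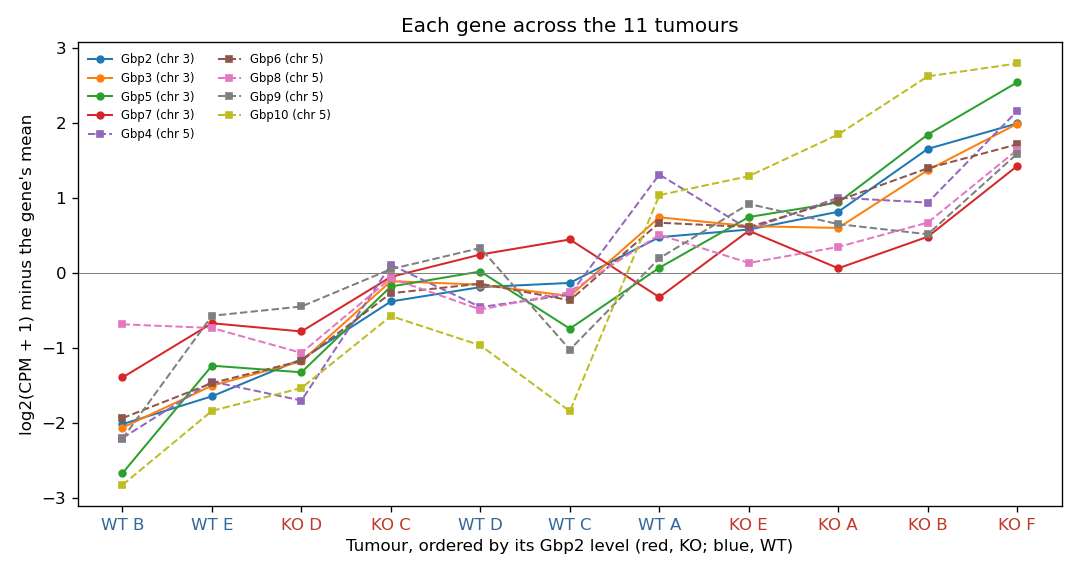
Deviation of each gene's log2(CPM + 1) from its mean over the 11 tumours, with tumours ordered by Gbp2 (KO labels in red, WT in blue; circles, chromosome 3; squares, chromosome 5). The lines run together from WT B to KO F, Gbp10 swings most, and KO D stands among the WT tumours at the low end.

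The genes whose pattern was most like that of the leading members were then listed by Pearson's r over the 11 tumours, without a test and leaving out the 9 members. For Gbp2 they were Oasl2 (0.976), Ifit2 (0.969), Herc6 (0.969), Gm4951 (0.969) and Irgm2 (0.967). For Gbp4 they were the antigen peptide transporter gene Tap1 (0.983), Herc6 (0.974), the class I histocompatibility gene H2-K1 (0.968), Parp12 (0.968) and H2-D1 (0.966). H2-K1 and H2-D1 are close homologues that can share reads, and their values are uncertain. Among these 9 genes, Ifit2 had the largest log2 fold change at 1.25 (SE 0.49, edgeR adjusted p = 0.157) and Parp12 the smallest at 0.41 (SE 0.32, edgeR adjusted p = 0.446).

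Gbp2 was related to Gbp4, to Ifng and Irf1, which act upstream of the Gbp genes, to Pkn2 and to the ribosomal RNA share in 5 comparisons over the 11 tumours (permutation tests, two-sided, 100000 resamples, Benjamini-Hochberg adjusted over the 5). The 5 comparisons were chosen with earlier results of these data known, so their p-values are not those of preset tests. Gbp2 and each measure also come from the same libraries and share their depth and composition. Gbp2 and Gbp4, on different chromosomes, had Pearson's r = 0.95 (permutation p = 3e-05, adjusted p = 0.00015) and Spearman's rho = 0.90 (permutation p = 0.00036, adjusted p = 0.0011). Irf1 gave r = 0.93 (permutation p = 9e-05, adjusted p = 0.000225) and rho = 0.90 (permutation p = 0.00044, adjusted p = 0.0011). Leaving out the 2 tumours farthest from the median of the other measure, r was 0.89 for Gbp4 and 0.91 for Irf1.

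Ifng, the gene of interferon gamma itself, was low, with 6.56 ± 4.15 CPM (SD, n = 6) for KO and 5.75 ± 4.85 CPM (SD, n = 5) for WT. Its relation to Gbp2 was r = 0.70 (permutation p = 0.0165, adjusted p = 0.0275) and rho = 0.68 (permutation p = 0.0244, adjusted p = 0.0406), with r = 0.73 without the 2 farthest tumours. Within the 6 KO tumours r was 0.93 for Gbp4 (exact permutation p = 0.00556, adjusted p = 0.0139), 0.98 for Irf1 (exact permutation p = 0.00278, the smallest this size allows, adjusted p = 0.0139) and 0.92 for Ifng (exact permutation p = 0.0139, adjusted p = 0.0231). No correlation is given for the WT tumours alone, since 6 was taken as the fewest tumours for one. Among them, Ifng and Gbp2 were both highest in replicate A (13.9 and 1802 CPM), whereas replicate D, with the lowest Ifng at 1.84 CPM, had 1135 CPM of Gbp2, above replicates B and E.

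Pkn2 showed no relation to Gbp2 that could be seen in these tumours (r = 0.01, permutation p = 0.987, adjusted p = 0.987; rho = -0.14, permutation p = 0.697, adjusted p = 0.697; r = -0.42 without the 2 farthest tumours). Total Pkn2 RNA did not separate the genotypes, so this comparison cannot show whether Gbp2 follows the deletion. For the ribosomal RNA share the values were r = -0.50 (permutation p = 0.12, adjusted p = 0.149) and rho = -0.38 (permutation p = 0.247, adjusted p = 0.309). Without WT replicates B and C, the 2 farthest, r was -0.12, so the relation over all tumours rests on them, while within the 6 KO tumours r was -0.87 (exact permutation p = 0.0389, adjusted p = 0.0486). The WT tumours showed no such order: replicate B had the highest share and the lowest Gbp2 level, and replicate E had the lowest share and the next lowest Gbp2 level.

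**Figure D4:**
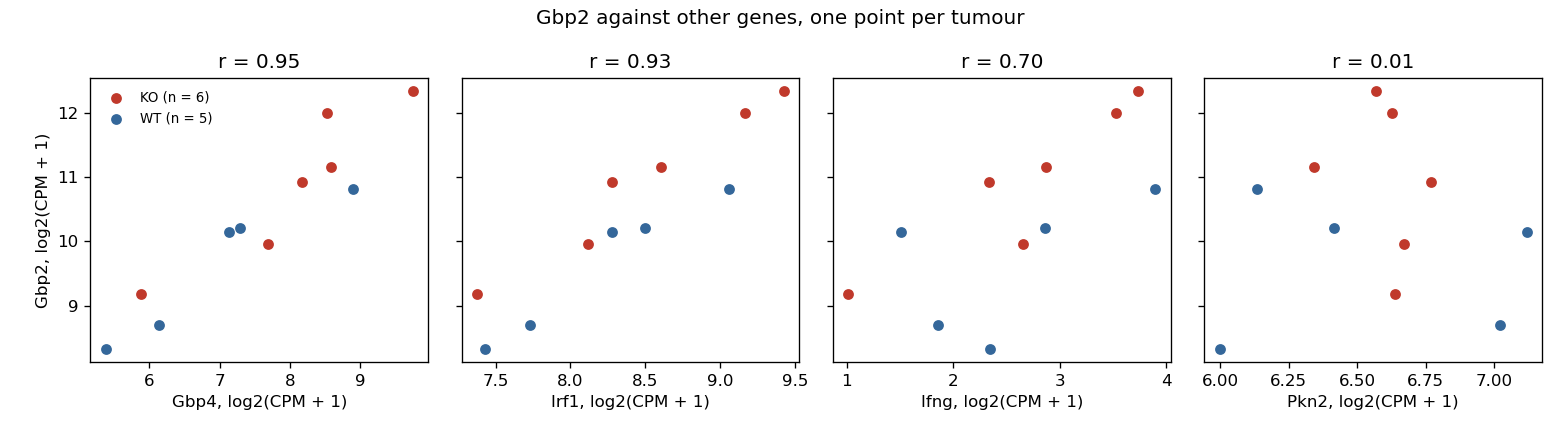
Gbp2 against Gbp4, Irf1, Ifng and Pkn2, each in log2(CPM + 1), with 1 point per tumour (KO in red, n = 6; WT in blue, n = 5) and Pearson's r above each panel. Points climb together for Gbp4 (r = 0.95) and Irf1 (r = 0.93), less tightly for Ifng (r = 0.70), and show no trend for Pkn2 (r = 0.01).

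Other genes of the pathway differed less between the genotypes than the Gbp genes did in their medians, and none passed the test. Of 13 interferon gamma signalling genes, 2 were higher at an unadjusted p under 0.05 and 0 were lower, against 8.57% and 15.5% of all genes, and the median log2 fold change was 0.34. These were the kinase gene Jak1 (0.60, SE 0.22, edgeR adjusted p = 0.133) and the receptor gene Ifngr1 (0.46, SE 0.21, edgeR adjusted p = 0.206), followed by Stat2 (0.61, SE 0.30, edgeR adjusted p = 0.233) and Irf2 (0.42, SE 0.22, edgeR adjusted p = 0.271). Ifng differed by 0.19 (SE 0.60) and Irf1 by 0.34 (SE 0.37), each by less than its SE.

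Of 20 interferon gamma targets, 2 were higher at an unadjusted p under 0.05, a share near the 8.57% of all genes, and 0 were lower, with a median of 0.57. They were Ciita, the master regulator of class II histocompatibility genes (1.14, SE 0.41, edgeR adjusted p = 0.129), and the adhesion gene Icam1 (0.86, SE 0.38, edgeR adjusted p = 0.193). Nos2, which makes nitric oxide, differed by 1.29 (SE 0.65, edgeR adjusted p = 0.241) and Tap1 by 0.91 (SE 0.46, edgeR adjusted p = 0.248).

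The immunity-related GTPases, which act on the same vacuoles as the Gbp proteins, had 8 of 8 positive log2 fold changes with a median of 0.71. Over all tested genes 48.0% were positive. Positive changes numbered 10 of 13 for interferon gamma signalling, 16 of 20 for its targets, 15 of 18 for type I interferon-stimulated genes and 4 of 8 for inflammasome genes. Of the GTPases, 1 of 8 had an unadjusted p under 0.05, near the 8.57% of all genes. That gene was Tgtp2 (1.04, SE 0.45, edgeR adjusted p = 0.187), a close copy of Tgtp1 whose counts are uncertain. Irgm2 gave 0.80 (SE 0.41), Iigp1 0.86 (SE 0.49) and Gm12250 0.79 (SE 0.55). Of 18 type I interferon-stimulated genes, 2 were higher at an unadjusted p under 0.05, Ifit2 and Oasl2 (0.93, SE 0.42, edgeR adjusted p = 0.198), which is also near that share, 0 were lower, and the median was 0.43. Next in order were the RNA sensor genes Ifih1 (0.59, SE 0.29) and Ddx58 (0.43, SE 0.30).

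The inflammasome genes, downstream of Gbp action, had a median of -0.01. Of 8 genes, 0 were higher and 1 was lower at an unadjusted p under 0.05, against 15.5% of all genes lower. This was the cytokine gene Il18 (-0.52, SE 0.19, edgeR adjusted p = 0.137). The DNA sensor gene Aim2 gave 0.53 (SE 0.26), Nlrp3 0.57 (SE 0.33) and the cytokine gene Il1b -0.77 with an edgeR adjusted p of 0.392.

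No marker of any cell type passed the test at an adjusted p under 0.05 with edgeR. At an unadjusted p under 0.05, where 8.57% of all genes were higher and 15.5% lower, all 6 B cell markers were counted as higher (edgeR, lowest adjusted p = 0.0663), with a median log2 fold change of 2.36, and their summed level ran from 34.8 to 105 CPM in KO and from 6.59 to 32 CPM in WT tumours. For neutrophils 4 of 6 markers were higher at that threshold, and sums ran from 268 to 2234 CPM in KO and from 157 to 1006 CPM in WT tumours. KO replicate F, highest for every Gbp gene, had the lowest neutrophil sum of the KO tumours. Of 8 macrophage markers 2 were higher, with sums from 3521 to 6201 CPM in KO and from 3079 to 6100 CPM in WT tumours. The highest macrophage sum was that of KO replicate F, followed by WT replicate B. T cell and NK cell markers had 0 of 8 and 0 of 6 at that threshold. Their sums ran from 70.2 to 419 and from 12.8 to 125 CPM in KO tumours, and from 172 to 498 and from 30 to 128 CPM in WT tumours. Both sums were lowest in KO replicate D, which had the lowest Gbp levels among KO tumours, and highest in WT replicate A, followed by KO replicate F. WT replicate B, lowest of all tumours for 8 of 9 Gbp genes, did not follow this order. Its T cell and NK cell sums were 221 and 48.6 CPM, inside the ranges of the KO tumours. Among 6 epithelial markers 3 were lower, with sums from 2469 to 4871 CPM in KO and from 3062 to 7983 CPM in WT tumours. Fibroblast and endothelial markers had 0 of 6 each, with fibroblast sums from 2720 to 5865 CPM in KO and from 1534 to 6176 CPM in WT tumours and endothelial sums from 163 to 228 and from 108 to 241 CPM. Of the 3 acinar markers tested 1 was lower, and acinar sums ran from 7.25 to 629 CPM in KO and from 12.8 to 1740 CPM in WT tumours. The part of these cells in the Gbp differences was not tested.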

How the data were processed

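Tumour RNA was sequenced from directional paired-end libraries. The authors trimmed reads with Trimmomatic, aligned them to GRCm38.p6 with HISAT2 (version 2.1.0) and deposited raw counts per gene of uniquely aligned reads from HTSeq (version 0.11.2), which removes reads that match several Gbp genes. A deposited table of normalised values was not used here. Identifiers were matched to GENCODE M21 (54079 of 54232).

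The counts were tested with the edgeR (version 4.0.16, R version 4.3.3) quasi-likelihood F-test with TMM normalisation, filterByExpr and no covariate, and p-values were adjusted by Benjamini-Hochberg over 16536 genes at 0.05. The SE came from the log2 fold change and the F statistic (absolute change over root F). On simulated counts with 200 of these 16536 genes changed by 2 on the log2 scale, 159 were recovered with 10 false calls. That change is larger than those of all members but Gbp10, so recovery of smaller changes was not tested. Alternatives were DESeq2 (version 1.42.0), limma-voom (limma version 3.58.1), DESeq2 size factors, no expression filter, a ribosomal RNA covariate (Gm42418, mt-Rnr1 and mt-Rnr2), a replicate block and omitted tumours. Relations used a pseudocount of 1 CPM and scipy (version 1.17.1).

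The members, lists and relations were chosen with earlier results of these data known. Genes named were the 9 members, Gbp2b, Gbp11, Pkn2, tested genes within 1 Mb of Pkn2, up to 4 genes of smallest p per list (Ifng and Irf1 were added after their values were seen) and the 5 genes most like the leading member of each cluster. Groups followed the labels, each tumour was a separate animal's, and all libraries of a group differed by more than sampling noise (lowest chi-square per degree of freedom 35.7). The labels give no batch. Floors cover counting error only.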

Additional observations from a re-analysis of the deposited data

How the results depend on the processing

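Each log2 fold change of the 9 members stayed positive under all 18 alternatives, and their adjusted p stayed above 0.05 except for Gbp5 with DESeq2 (1.90, adjusted p = 0.0223), which made the count of members called on chromosome 3 1 with DESeq2 against 0 with edgeR. The count on chromosome 5 was 0 throughout. Several fits called 0 of all genes, such as limma-voom, the ribosomal RNA covariate and the fit without WT replicate A. Others called many higher, with 566 for DESeq2 and 608 without WT replicate E. With the ribosomal RNA covariate, 0 chromosome 3 and 0 chromosome 5 members were higher at an unadjusted p under 0.05, against 2 and 3. Leaving out 1 tumour at a time, these counts ran from 1 to 4 and from 1 to 5. The number of all genes at that threshold, in either direction, ran from 2732 to 5367 over the same fits. The count of interferon gamma signalling genes called ran from 0 to 1, the latter being Jak1 without WT replicate E. With the replicate letter as a replicate block, over letters A to E and thus without KO replicate F, the counts were 0 and 0, and 0 members were called. In that edgeR fit 2599 of 16386 genes had an unadjusted p under 0.05. The letters did not pair the tumours, since correlations of the deviations of tumours with the same letter ran from -0.135 to 0.118 and 1 of 10 tumours correlated best with its own letter. With the longest transcript as gene length, the level per kilobase went from 26.7 to 47.1 for Gbp5 and from 36.9 to 60.9 for Gbp4, and the mean log2 ratio of Gbp5 to Gbp7 turned from -0.27 to 0.55. The causes were not tested. No value of the 9 members, Gbp2b or Gbp11 was flagged by Dixon's test, in 22 groups examined. That absence of flags does not describe the values in CPM, in which WT replicate A lay far above the other WT tumours for Gbp10, Gbp4 and Gbp8. It had 20.9 CPM of Gbp10 against at most 4.46 CPM, 476 CPM of Gbp4 against at most 156 CPM, and 60.1 CPM of Gbp8 against at most 35 CPM. The SE of the log2 fold change ran from 0.39 for Gbp7 to 0.95 for Gbp10, and depth limits Gbp10 most, whose lowest value is 6 counts.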
